A study of Mus musculus with 4 samples.

Results

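Interleukin receptor genes encode the cell surface chains through which cells read interleukins, the secreted messengers of the immune system. The members described here were the genes whose single symbol in the platform's probe annotation begins with Il, a number and r, leaving out Il1rn, which encodes a soluble antagonist. The rule gave 36 genes of the 22180 that the annotation names, each read from its feature of highest mean expression. Of these, 19 reached the filter level of 3.53 log2 units, the median of all deposited features, and were tested, and 17 lay below it. The RefSeq gene table holds 40 genes whose names match. The other 4, Il2rg, Il1rl1, Il11ra1 and Il11ra2, have no single-symbol feature and were not analysed here.

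The arrays measured RNA of mouse bone marrow derived macrophages, phagocytes grown for 6 days from marrow precursors with L-cell supernatant, a source of macrophage growth factor. The knockout genotype, PP2ACαfl/fl;lyM-Cre, had 2 arrays. Its PP2ACα alleles were floxed and a myeloid Cre removed exon 1; PP2ACα, from the gene Ppp2ca, is a catalytic subunit of protein phosphatase 2A. The control genotype, PP2ACαfl/fl, also had 2 arrays and carried the floxed alleles with no Cre. Every culture, control or knockout, had received 100 ng/ml of lipopolysaccharide (LPS) for 2 hours, so the comparison concerns stimulated cells and not the response to LPS. The labels call the arrays biological replicates, and do not state that each came from another mouse. No group carried Cre without the floxed alleles, so an effect of Cre and one of the lost subunit cannot be told apart. In RNA from whole cultures, a change in the number of cells of a type and a change of RNA per cell cannot be told apart.

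Most interleukin receptors work as pairs of chains, often a private chain that recognises the ligand and a chain that other receptors share. Receptors of the haematopoietin and IL-10 classes signal through Janus kinases and STAT factors, those of the IL-1 class through MyD88 and IRAK kinases, and those of the IL-17 class through the adaptor Act1. In macrophages, IL-10 signalling restrains the LPS response and IL-4 and IL-13 drive alternative activation.

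Il6ra, which encodes the ligand-binding chain of the IL-6 receptor, was higher in knockout macrophages, and Il13ra1, which encodes the chain that joins the IL-4 receptor alpha chain to form the type II receptor for IL-4 and IL-13, was lower. These 2 of 19 tested members were called, 1 in each direction, at a limma adjusted p under 0.05. Among all 12542 tested genes, 6.79% were called, 3.3% as higher and 3.49% as lower in knockout, and the members' share was 10.5%. The median difference of the tested members was 0.02 log2 units, with 10 positive and 9 negative, beside 0.01 over all tested genes. With quantile normalization or median centring the members' median was -0.02, beside -0.01 and -0.03 over all tested genes in that order. It was 0.23 over the 11 members left by the stricter filter, beside 0.01 over all genes left. Leaving out any of the 4 arrays ended both calls, with limma adjusted p-values of 0.11 to 0.22 for Il6ra and 0.095 to 0.20 for Il13ra1, as did testing without the filter. Il6ra also missed the threshold with median centring and with all features as units. No member differed by 1.5-fold, the cutoff of the series' design text. Of all tested genes 5.24% did, and with 19 tested members a share this small does not set the members apart.

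The sequences before the start sites of the genes that changed are shown because their differences are the ones the test called. Each line gives the 250 bases before the RefSeq start on the gene's own strand in the GRCm38.p6 assembly, for Il6ra at chr3:89913197-89913446 on the minus strand and for Il13ra1 at chrX:36111858-36112107 on the plus strand. Capitals mark a match to any of 4 motifs, searched on both strands.
Il6ra: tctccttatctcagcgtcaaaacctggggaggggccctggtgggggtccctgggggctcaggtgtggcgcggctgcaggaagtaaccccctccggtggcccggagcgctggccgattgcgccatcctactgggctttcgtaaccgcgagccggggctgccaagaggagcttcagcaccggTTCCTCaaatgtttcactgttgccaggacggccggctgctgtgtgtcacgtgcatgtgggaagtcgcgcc
Il13ra1: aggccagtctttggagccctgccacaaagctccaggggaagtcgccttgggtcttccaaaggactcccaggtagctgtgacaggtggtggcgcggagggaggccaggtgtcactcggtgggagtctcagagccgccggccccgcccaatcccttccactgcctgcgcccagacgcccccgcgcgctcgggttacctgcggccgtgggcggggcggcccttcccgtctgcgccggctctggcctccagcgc
The motifs were the STAT site GAS (TTCNNNGAA), a core of the interferon element ISRE (GAAANNGAA), the AP-1 site (TGANTCA) and the core of the myeloid factor PU.1 (GAGGAA). Il6ra held 1 match, a PU.1 core read on the opposite strand with its first base 70 bases before the start, and Il13ra1 held none of these letters. Of 32851 promoter windows of this length, 7.02% held GAS, 7.13% the ISRE core, 6.75% AP-1 and 23.3% the PU.1 core. Of the 33 windows that belong to 29 members, 5, 1, 6 and 10 held them, in the same order of motifs. These matches describe letters and were not set against binding data.

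**Figure D1:**
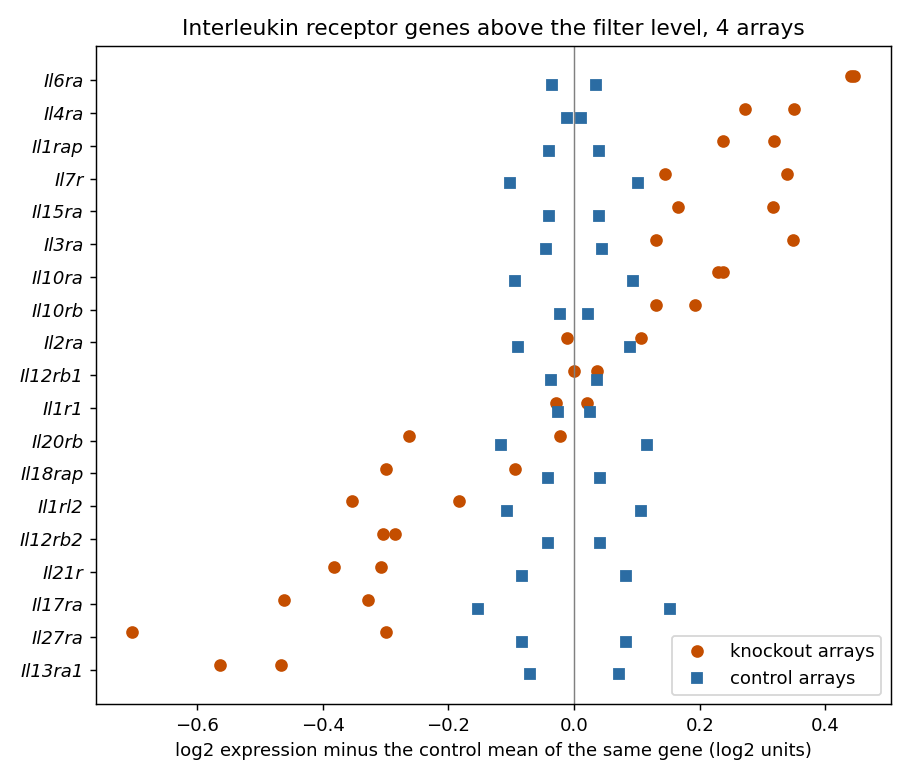
Per-array values of the 19 tested members, each as log2 expression minus the control mean of that gene, with knockout arrays as circles and control arrays as squares. Il6ra lies at the top with both knockout arrays more than 0.4 above its control mean, Il13ra1 at the bottom with a difference of -0.52, and the arrays of the genotypes overlap for Il2ra, Il12rb1, Il1r1 and Il20rb.

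Of the 6 genes of receptors related to gp130 and to the IL-12 receptor, 4 were tested, and Il6ra alone was called. Il6ra read 9.37 and 9.38 log2 units on the knockout arrays, against 8.97 and 8.90 on the control arrays. The knockout arrays were nearly equal and both lay above the controls, with a gap of 0.41 between the groups and a range of 0.07 within the controls. Il6ra thus rose by 0.44 (SE 0.09, 1.36-fold, limma adjusted p = 0.044). Il6st, the gene of gp130, the chain that IL-6 and IL-27 receptors share to signal, differed by 0.10 (limma adjusted p = 0.54). Il27ra, the gene of the private chain for IL-27, read 4.84 and 4.44 in knockout cells, against 5.06 and 5.23 in control cells. Both knockout arrays were lower, but they differed from each other by 0.40, and the difference of -0.50 (SE 0.16) did not pass (limma adjusted p = 0.12). Without knockout replicate 2 it was -0.30, and without knockout replicate 1 it was -0.70.

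Il12rb2 encodes the signalling chain of the IL-12 receptor. It read 6.68 and 6.70 in knockout cells, against 7.02 and 6.94 in control cells, which did not overlap. The difference of -0.29 (SE 0.09) did not pass (limma adjusted p = 0.11). Il12rb1, the gene of the chain that IL-12 and IL-23 receptors share, read 3.81 and 3.85 in knockout cells, against 3.77 and 3.85 in control cells. Its arrays overlapped, and the 95% interval of its difference ran from -0.20 to 0.24. Il23r and Il31ra, the genes of private chains for IL-23 and IL-31, lay below the filter level.

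The IL-4 and IL-13 receptors and the chains that pair with the common gamma chain made up 9 genes. Of these, 6 were tested and only Il13ra1 was called. Il13ra1 read 6.78 and 6.87 in knockout cells, against 7.27 and 7.41 in control cells. The groups stood 0.40 apart, more than the range of 0.14 within the controls, and Il13ra1 fell by 0.52 (limma adjusted p = 0.043), 1.43-fold. Il4ra, the gene of the chain that binds IL-4 in both types of IL-4 receptor, read 8.33 and 8.25 in knockout cells, against 7.97 and 7.99 in control cells. All knockout values lay above all control values, but the difference of 0.31 (SE 0.09, 95% interval 0.09 to 0.53) did not pass (limma adjusted p = 0.10). Il13ra2, the gene of a decoy for IL-13, lay below the filter level on every array, between 2.23 and 2.33.

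Il21r, the gene of the IL-21 receptor, is the neighbour of Il4ra in the RefSeq gene order. It read 7.01 and 6.94 in knockout cells, against 7.24 and 7.40 in control cells. The groups did not overlap and the difference was -0.35 (SE 0.10, limma adjusted p = 0.11), opposite in sign to that of Il4ra, and neither passed. Il7r, which encodes the IL-7 receptor and is best known in lymphocytes, read 10.73 and 10.92 in knockout cells, against 10.68 and 10.48 in control cells. Only 0.04 separated the genotypes while the arrays of each were 0.19 and 0.20 apart, and the difference of 0.24 did not pass (limma adjusted p = 0.28). It was 0.14 without control replicate 2 and 0.15 without knockout replicate 2.

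Il15ra, the gene of the chain that presents IL-15 to neighbouring cells, read 5.57 and 5.42 in knockout cells, against 5.30 and 5.22 in control cells. Its knockout arrays were both above the controls, and the difference of 0.24 did not pass (limma adjusted p = 0.21). Il2ra, the gene of the high-affinity chain for IL-2 and a neighbour of Il15ra, read 3.55 and 3.67 in knockout cells, against 3.48 and 3.66 in control cells. Its arrays overlapped and lay close to the filter level. Il2rb, the gene of a chain that the IL-2 and IL-15 receptors share, and Il9r, the gene of the private chain for IL-9, lay below it.

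**Figure D2:**
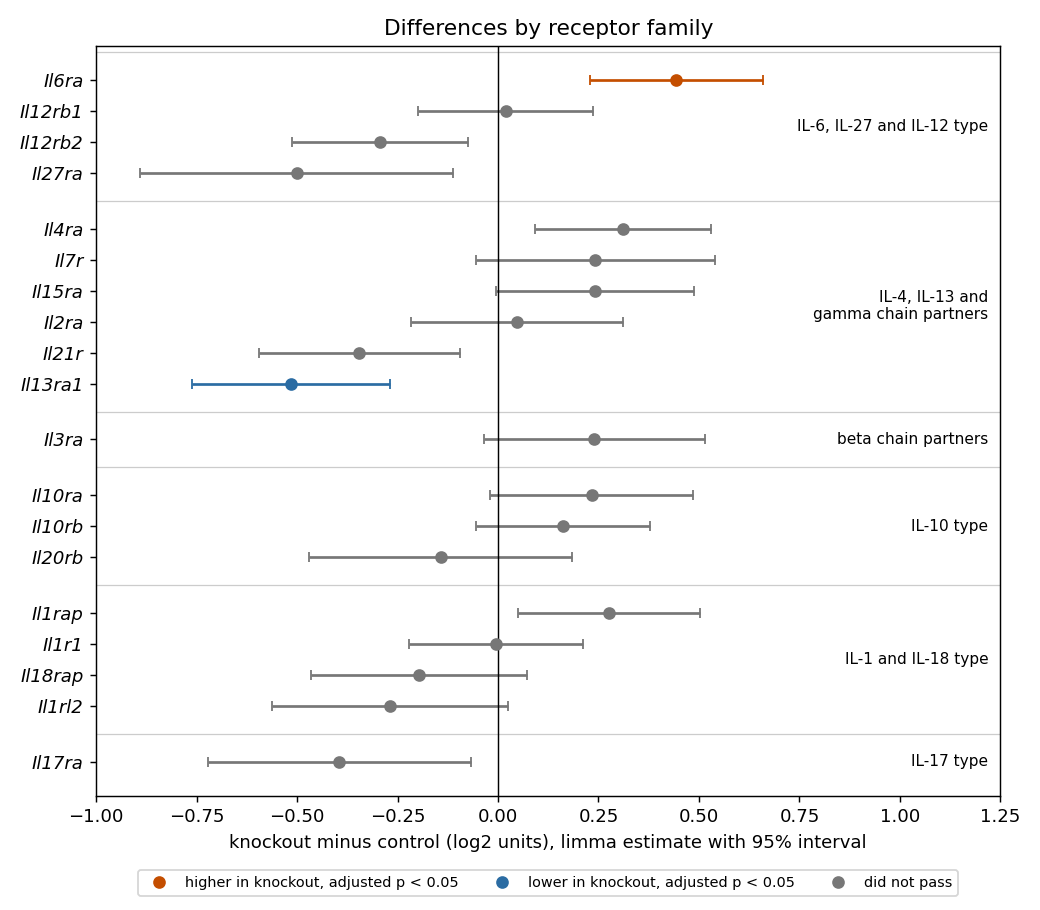
Difference of each tested member between knockout and control in log2 units, as limma's estimate with its 95% interval, grouped by receptor family. Il6ra and Il13ra1 are coloured because they passed, and the other 17 are grey.

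The IL-10 receptor chains both read higher in knockout cells without passing. Il10ra, the gene of the ligand-binding chain, read 9.88 and 9.87 in knockout cells, against 9.74 and 9.55 in control cells. Il10rb, the gene of the chain that IL-10 shares with IL-22 and type III interferons, read 10.85 and 10.91 in knockout cells, against 10.70 and 10.74 in control cells. Neither gene's groups overlapped. The differences were 0.23 for Il10ra (limma adjusted p = 0.23) and 0.16 for Il10rb (limma adjusted p = 0.31). Without control replicate 2 the Il10ra difference was 0.14. Il20rb, the gene of a chain for IL-19, IL-20 and IL-24, read 4.77 and 4.53 in knockout cells, against 4.90 and 4.67 in control cells, which overlapped. Il20ra and Il22ra1, genes of receptor chains for IL-20 and IL-22, lay below the filter level, as did Il22ra2, the gene of the soluble IL-22 binding protein.

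Il3ra, the gene of the private chain for IL-3, read 6.72 and 6.50 in knockout cells, against 6.41 and 6.32 in control cells. The knockout arrays were both higher but 0.22 apart, and the difference of 0.24 did not pass (limma adjusted p = 0.25) and was 0.13 without knockout replicate 1. Csf2rb, the gene of the beta chain shared with IL-5 and GM-CSF, differed by -0.40 (limma adjusted p = 0.077). Csf2rb2, a close copy of it that encodes an IL-3 beta chain in mice, differed by -0.10, and probes of these paralogs may read each other's transcripts. Il5ra, known from eosinophils, lay below the filter level.

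In the IL-1 class, 4 of 8 genes were tested and none was called. Il1rap encodes the accessory chain that receptors for IL-1, IL-33 and IL-36 share, and read 6.24 and 6.32 in knockout cells, against 5.96 and 6.04 in control cells. The genotypes stood 0.20 apart and each varied by 0.08, yet the difference of 0.28 (SE 0.09) did not pass (limma adjusted p = 0.14). The gene's other features were dim, with means of 2.95 and 2.03, and differed by 0.01 and -0.06. Il1r1, the gene of the signalling IL-1 receptor, read 4.02 and 3.97 in knockout cells, against 3.98 and 4.03 in control cells. These values overlapped and lay near the filter level, where differences can be understated. The 95% interval of the measured difference ran from -0.22 to 0.21. Il1r2, the decoy receptor gene, lay just below the filter level.

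Il1rl2, the gene of the private chain for IL-36, read 3.74 and 3.91 in knockout cells, against 4.20 and 3.99 in control cells, all near the filter level. Il18rap, the gene of the accessory chain for IL-18, read 4.68 and 4.89 in knockout cells, against 5.02 and 4.94 in control cells. Both genes read lower on the knockout arrays than on either control array, and the differences of -0.27 for Il1rl2 (limma adjusted p = 0.23) and -0.20 for Il18rap (limma adjusted p = 0.32) did not pass. Il1rl2 differed by -0.16 without control replicate 1, and Il18rap by -0.09 without knockout replicate 1 and -0.30 without knockout replicate 2. Il18r1, the gene of the ligand-binding chain for IL-18, was below the filter level, as were Il1rapl1 and Il1rapl2, known mainly from neurons.

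Of the IL-17 receptor genes, Il17ra alone reached the filter level. It encodes the chain shared by most IL-17 receptors and read 7.53 and 7.66 in knockout cells, against 7.83 and 8.14 in control cells. The control arrays were 0.31 apart, wider than the gap of 0.18 between the genotypes, and the difference of -0.39 (SE 0.13) did not pass (limma adjusted p = 0.14). Without control replicate 2 it was -0.24, and without control replicate 1 it was -0.55. Il17rb, Il17rc, Il17rd and Il17re lay below the filter level.

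**Figure D3:**
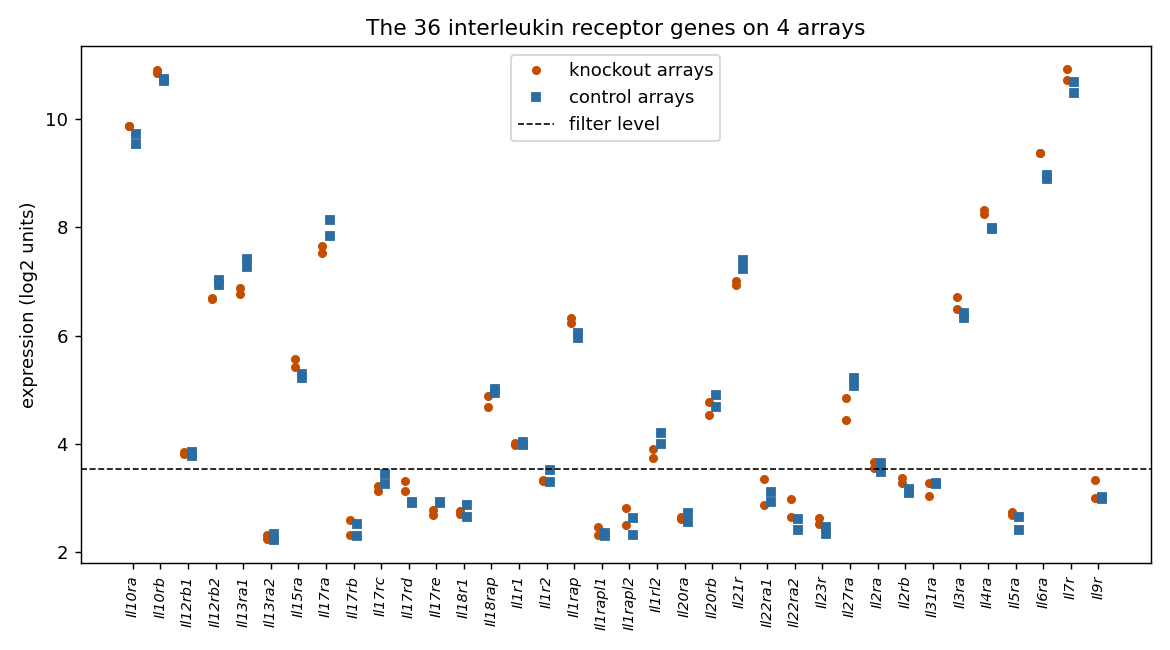
Expression in log2 units of all 36 members in alphabetical order, with 2 knockout arrays as circles and 2 control arrays as squares, and the filter level of 3.53 as a dashed line. Brightness differs between probes for technical reasons, so only values of the same gene compare, and 17 members have means under the line.

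The 17 untested members had means between 2.28 and 3.37 log2 units. Their differences ran from -0.18 for Il17re to 0.31 for Il17rd, and near background such differences are understated. Across the 19 tested members, the arrays of the genotypes did not overlap for 15, with 8 higher and 7 lower in knockout cells. This is 78.9% of the tested members, beside 55.3% of all tested genes, of which 28.8% were higher and 26.5% lower. For 7 members the gap between genotypes was wider than the range within either, which was so for 26.7% of all tested genes: Il6ra, Il4ra, Il1rap and Il10rb on the higher side, and Il12rb2, Il21r and Il13ra1 on the lower. The median absolute difference was 0.24 among the tested members and 0.15 among all tested genes.

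An equal shift of all log2 values of an array cancels in ratios of partner chains within that array. A correction that depends on intensity does not cancel. For 8 receptor complexes, chosen after the values of the single genes were seen, the log2 ratio was compared between genotypes, and with 2 arrays against 2 the smallest p an exact two-sided permutation test can give is 0.333. The ratio of Il4ra to Il13ra1 was 1.55 and 1.38 in knockout cells, against 0.70 and 0.58 in control cells. The knockout ratios were both above the control ratios, a change of 0.83 log2 units (exact permutation p = 0.333). The ratio of Il3ra to Csf2rb changed by 0.64, that of Il6ra to Il6st by 0.34 and that of Il12rb1 to Il12rb2 by 0.31. Csf2rb2, which also encodes an IL-3 beta chain, differed by -0.10, and no ratio to it was computed. Probes of Csf2rb and Csf2rb2 may read each other's transcripts. The ratio of Il27ra to Il6st changed by -0.60, that of Il1rl2 to Il1rap by -0.55 and that of Il1r1 to Il1rap by -0.28. These are descriptions of pairs picked with the values in view, and no share over other pairs of genes was computed. The ratio of Il10ra to Il10rb changed by 0.07, within the control range of 0.23.

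**Figure D4:**
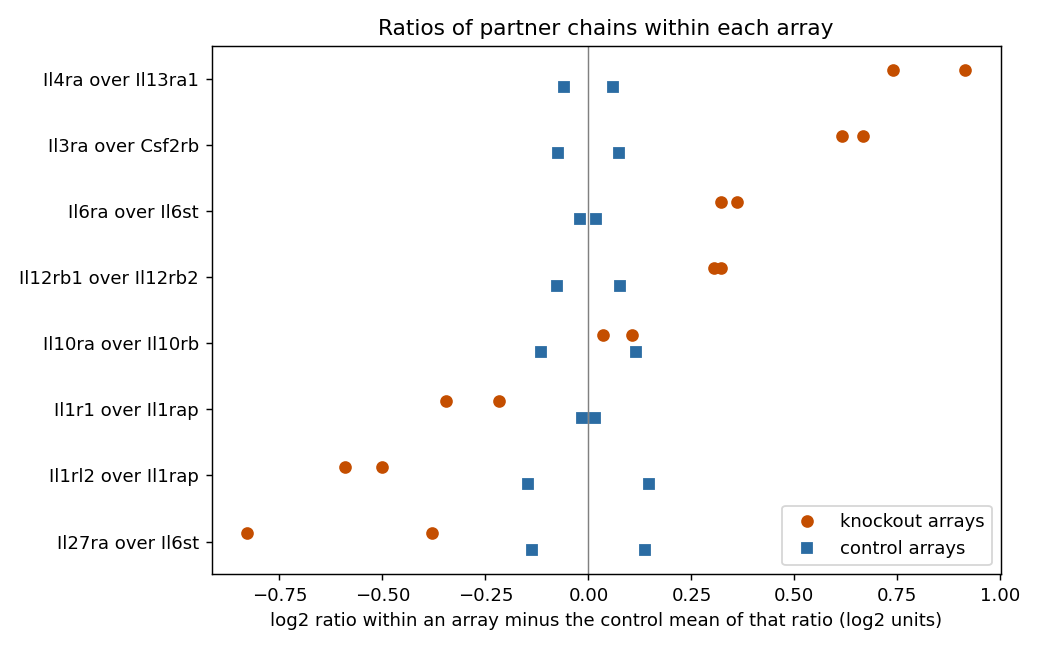
Log2 ratio of the partner chains of 8 receptor complexes within each array, minus the control mean of that ratio, with knockout arrays as circles and control arrays as squares. The ratio of Il4ra to Il13ra1 sits highest, with a change of 0.83, and for the ratio of Il10ra to Il10rb the genotypes overlap.

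Ligand genes were read beside their receptors. The calls of these and of the other pathway genes below come from the main fit only. They were not followed with arrays left out or with other processing. Of 34 measured interleukin genes and subunits, 15 were tested, of which 3 rose and 1 fell. Among all tested genes, 3.3% were called higher and 3.49% lower, and these shares apply to each list count below. No list count was tested against them. Il6 rose by 1.04 (limma adjusted p = 0.017), so that the genes of both the ligand and its private receptor chain were called higher. Il15 rose by 0.78 (limma adjusted p = 0.012) beside 0.24 for Il15ra, which did not pass. Il18 rose by 0.79 (limma adjusted p = 0.015) beside -0.20 for Il18rap, which did not pass. Il12b, the gene of the subunit shared by IL-12 and IL-23, read 4.80 and 5.06 in knockout cells, against 5.70 and 6.05 in control cells, and fell by 0.94 (limma adjusted p = 0.033) beside 0.02 for Il12rb1 and -0.29 for Il12rb2. Il27 differed by 0.54 (limma adjusted p = 0.10) and Il27ra by -0.50, both without passing. Il10 at -0.23 and Il10ra at 0.23 did not pass, nor did Il1b at -0.06.

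**Figure D5:**
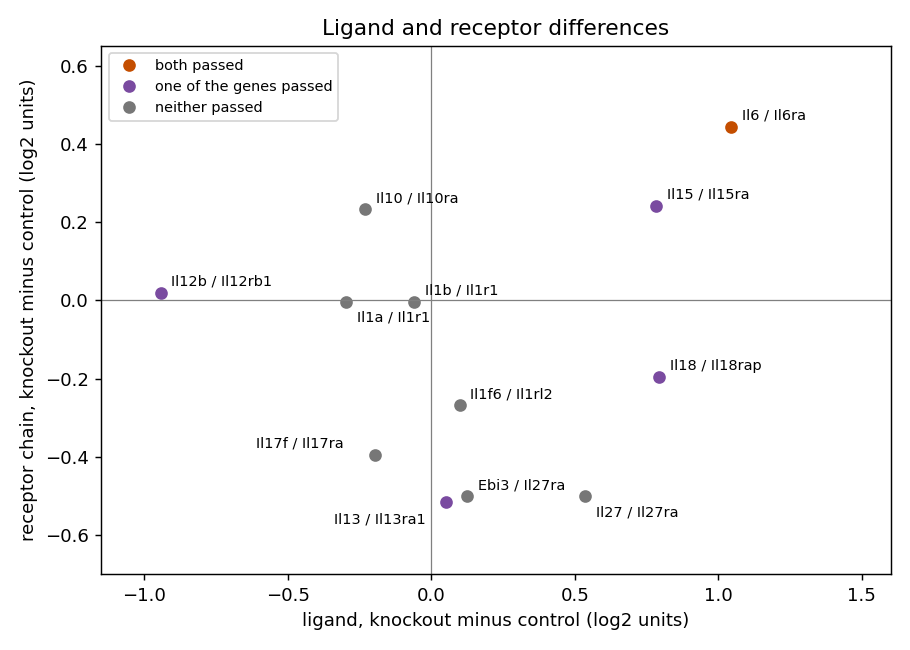
Knockout minus control differences in log2 units for 12 pairs of a ligand gene (horizontal axis) and a receptor chain gene (vertical axis). Il6 and Il6ra form the pair in which both passed, at 1.04 and 0.44. Pairs that share a gene are not independent points.

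The 2 tested genes of soluble antagonists moved in opposite directions, and Il1f5, also on that list, lay below the filter level. Il1rn, which encodes the antagonist that occupies the IL-1 receptor, read 8.04 and 8.02 in knockout cells, against 8.79 and 8.54 in control cells, and fell by 0.63 (limma adjusted p = 0.038). Il18bp, which encodes the protein that captures IL-18, read 6.00 and 5.76 in knockout cells, against 4.99 and 5.28 in control cells, and rose by 0.74 (limma adjusted p = 0.042). Both genes' groups stood clear of each other. Among 7 tested genes of shared and related chains, Lifr, the gene of the leukaemia inhibitory factor receptor that also pairs with gp130, rose by 0.98 (limma adjusted p = 0.0096) and none fell.

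Downstream, 1 of 9 tested Janus kinase and STAT genes passed. Stat2, known from type I interferon signalling, rose by 0.86 (limma adjusted p = 0.015), whereas Jak1 at -0.08, Stat6 at -0.02, the factor that IL-4 and IL-13 use, and Stat3 at 0.25, the factor that IL-6 and IL-10 use, did not pass. Of 15 genes of feedback on cytokine receptors, Socs3, which encodes an inhibitor of gp130 signalling, fell by 0.61 (limma adjusted p = 0.031) and none rose. None of the 11 tested adaptor and kinase genes of the IL-1 and IL-17 receptors was called, with Myd88 at 0.36 (limma adjusted p = 0.074). None of 4 tested genes of receptor shedding was called, with the protease gene Adam17 at -0.24.

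The targeted gene, Ppp2ca, read 4.36 and 3.39 in knockout cells, against 8.25 and 7.59 in control cells, and any pair of arrays correlated at 0.986 to 0.990 across features. Macrophage markers were bright, and the summed level of the 7 measured was 14.02 to 14.03 log2 units in knockout cells, against 13.81 to 13.96 in control cells; of them Fcgr1 rose and none fell. Each summed level adds all measured markers of a list on the linear scale, those below the filter level included. Background and the brightest probe therefore weigh in it. Several interleukin receptors are also known from other cells. The summed level of the 8 measured T and NK cell markers was 6.36 to 6.39 in knockout cells, against 6.26 to 6.37 in control cells, and Cd3e, Cd3d and Cd3g lay below the filter level. That of 4 B cell markers was 6.02 to 6.04 in knockout cells, against 5.82 to 5.92 in control cells, with Cd79a, Pax5 and Ms4a1 below the filter level. That of 8 mast cell, basophil and eosinophil markers was 6.11 to 6.16 in knockout cells, against 6.18 to 6.31 in control cells, with 6 below the filter level. That of 6 dendritic cell markers was 7.45 to 7.65 in knockout cells, against 7.41 to 7.57 in control cells. That of 7 neutrophil markers was 6.51 to 6.60 in knockout cells, against 6.40 to 6.45 in control cells, and that of 6 stromal markers 6.09 to 6.14 in knockout cells, against 6.12 to 6.24 in control cells. No tested marker of these other cells was called. Below the filter level, and so not open to a call, lay 5 T and NK cell, 3 dendritic cell, 4 neutrophil and 3 stromal markers. Among tested markers of other cells, differences ran from -0.24 for Col1a2 to 0.40 for Ccr7 (limma adjusted p = 0.064). Among untested ones they ran from -0.43 for Siglecf to 0.56 for Klrb1c. The part of these cells in the receptor values was not tested.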

How the data were processed

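The deposited table holds log2 values of 41345 features on 4 arrays, made by the authors with robust multi-array averaging, per the series' design text; oligo and RMA are also listed in the submitters' processing notes, with no version. Any change of total RNA per cell is lost in that normalization. Genes were named from the platform annotation, where 23521 features had 1 symbol, 1814 had several and 16010 had none. Knockout was compared with control in limma 3.58.1 (R 4.3.3, lmFit and eBayes, two-sided, no block), with Benjamini-Hochberg adjustment over all 12542 genes at or above the filter level. Residual degrees of freedom were 2 and prior degrees of freedom 3.51, so the number of arrays limits precision. Standard errors, intervals and p-values use a variance moderated toward that of all tested genes, not the spread of a gene's own arrays alone. They measure no spread beyond that between these arrays. A gene is said to rise or fall when its adjusted p was under 0.05. The fit was tested on simulated data drawn from its own variance model, which cannot show that the model suits these arrays.

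Members and lists were chosen with earlier results of these data known. The rule for naming genes was every member, the called genes of the pathway lists, and Il6st, Csf2rb, Jak1, Stat3, Stat6, Myd88, Socs3, Il1rn, Il6, Il10, Il1b and Ppp2ca in any case; any other gene was chosen with its values in view. Sequences are from RefSeq (GRCm38.p6); all 36 members matched its gene table and 29 had a promoter window. Same-numbered arrays did not deviate together across tested genes (r = -0.04), so the replicate number was not used as a pairing. Alternatives covered the filter, normalization, features per gene, arrays left out, the block, the variance model and array weights.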

Additional observations from a re-analysis of the deposited data

How the results depend on the processing

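Under the 14 alternatives Il6ra differed by 0.40 to 0.48 and Il13ra1 by -0.59 to -0.44, and they passed in 6 and 8 of them. With all arrays kept, limma adjusted p-values were 0.0058 to 0.11 for Il6ra and 0.011 to 0.098 for Il13ra1. Most alternatives could not test the direction. The changes of filter, features per gene, block, variance model and array weights left the differences at 0.44 and -0.52. Leaving out an array could not turn the sign, because the groups did not overlap. Quantile normalization and median centring could have turned it, and gave 0.45 and 0.40 for Il6ra and -0.51 and -0.56 for Il13ra1. Il12rb1, Il1r1 and Il2ra changed sign under 3, 2 and 2 alternatives without ever passing. With no filter 333 genes were called, and 0 members higher and 0 lower. With the stricter filter 1487 were called, with 2 members higher and 3 lower (Il4ra, Il12rb2 and Il21r joined), and a median of 0.23 over the 11 members left. The trend in the prior gave 1584 calls and 2 members higher, Il4ra being the other. Median centring gave 0 members higher (Il6ra adjusted p = 0.061) and a list median of -0.0228, quantile normalization gave a list median of -0.0219, and all features as units gave 0 members higher (Il6ra adjusted p = 0.051). With the replicate number as a block, 312 genes and 0 members in either direction were called (Il6ra adjusted p = 0.098, Il13ra1 adjusted p = 0.080). Leaving out each array in turn gave 96 to 174 called genes, 0 members higher, 0 lower and a list median of -0.027 to 0.055; the lone array is then assumed to vary like the other genotype's. Signals near background limit the 17 untested members and the tested members close to the filter level.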
